A study of Homo sapiens with 32 samples.

Results

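The Prader-Willi region of chromosome 15q11-q13 was followed through the 7 comparisons that the authors made in neuroblastoma cells carrying MYC or its deletion mutants. Its members were selected by symbol: the numbered copies of SNORD116 and SNORD115, and SNRPN, SNURF, IPW, NDN, MAGEL2 and UBE3A. The locus itself was picked on measured values, because SNORD116 copies had moved in these comparisons, so their folds are given as a description and carry no test. Of 58317 genes in the authors' deposited table, 74 were members: 25 copies of SNORD116, 44 copies of SNORD115 and 5 single genes. IPW was not analysed here. A value was given for 44 of the 74 members in at least 1 comparison and for 29 in all 7, while 30 had none.

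Genomic imprinting silences 1 parental copy of a gene by methylation laid down in the germ line. On the paternal chromosome a long RNA, SNHG14, starts near SNRPN and runs through the SNORD116 and SNORD115 arrays to the gene UBE3A, which it overlaps on the opposite strand, and the snoRNAs are cut from its introns. Loss of the paternal SNORD116 copies is a main cause of Prader-Willi syndrome, and loss of maternal UBE3A, a ubiquitin ligase imprinted in neurons, causes Angelman syndrome. Box C/D snoRNAs usually guide ribose methylation of ribosomal RNA through a short antisense element beside box D, but SNORD116 has no known target of that kind and SNORD115 is matched to the serotonin receptor mRNA HTR2C.

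RNA sequencing was done in 32 libraries in 8 groups of 4. All came from SH-EP/TET21/N (TET21), a single human neuroblastoma line that carries a MYCN transgene shut off by doxycycline, and the growth protocol given with every sample, which names cells expressing wild-type MYC, was 1 µg/mL doxycycline for 7 days. The groups carried an empty vector (EV), wild-type MYC (WT), or MYC deletion mutants labelled MYC 0x (d0x), MYC 1 (d1), MYC 2 (d2), MYC 3a (d3a), MYC 3b (d3b) and MYC 4 (d4), each expressed ectopically. The labels do not say which residues each mutant lacks, nor whether the 4 replicates were separate cultures. The data used here are the authors' own comparisons of WT against EV and of each mutant against WT, each with a log2 posterior fold and a PPDE, the posterior probability that the gene differs in expression. A positive fold means a higher level in the first group named, and a call is a PPDE of at least 0.95, which per the header equals a false discovery rate below 0.05. All 7 comparisons use the WT libraries. Values per library and depths were not used, so no fold below has a standard deviation.

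For the series as a whole, MYC itself had a fold of 0.98 in the authors' deposited table for the WT and EV groups (PPDE 0.35, not called), and in the mutants it lay between -0.09 and 0.68, also without a call. Of 5 adrenergic neuroblastoma markers, HAND2 rose in WT (0.48, authors' deposited table) and TH had no value in any comparison. Of 4 epithelial markers in the authors' deposited table, KRT5, KRT14 and CDH1 fell in WT against EV, with folds of -5.10, -4.66 and -3.59. Of 5 mesenchymal markers in that deposited table, FN1 and SNAI2 fell in WT, with folds of -2.51 and -1.35, and rose in d2 against WT, with 1.77 and 1.36. Of 4 neuron markers in the authors' deposited table, SYT1 fell in WT by 1.19, while the other 3 were above 0 without a call and the median was 0.58. None of 4 immune markers was called. The part of these shifts in the results below was not tested.

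The sequences of the called copies show how alike the members are. They were matched by symbol to GENCODE 29 transcripts (GRCh38, chromosome 15, plus strand), which hold all 25 SNORD116 and all 44 SNORD115 copies of the deposited table. The copies below are the 6 SNORD116 copies called in any comparison, a copy identical to one of them but never called (SNORD116-17), and the only SNORD115 copy with reads in WT (SNORD115-3). Each is written 5′ to 3′ with box C (ATGATGA or GTGATGA in the first 20 bases) and box D (CTGA in the last 20 bases) in capitals, the elements bound by the box C/D proteins.
SNORD116-6: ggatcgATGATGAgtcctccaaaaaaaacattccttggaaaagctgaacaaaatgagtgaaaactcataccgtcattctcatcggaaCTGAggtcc
SNORD116-7: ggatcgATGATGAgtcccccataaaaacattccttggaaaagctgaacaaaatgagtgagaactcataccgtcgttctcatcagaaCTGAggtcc
SNORD116-13: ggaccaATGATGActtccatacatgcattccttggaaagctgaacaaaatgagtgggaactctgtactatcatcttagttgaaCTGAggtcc
SNORD116-14: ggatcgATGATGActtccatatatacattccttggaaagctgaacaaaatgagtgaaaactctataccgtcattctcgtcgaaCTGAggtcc
SNORD116-18: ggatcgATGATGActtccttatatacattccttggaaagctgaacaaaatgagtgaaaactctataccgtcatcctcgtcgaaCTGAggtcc
SNORD116-19: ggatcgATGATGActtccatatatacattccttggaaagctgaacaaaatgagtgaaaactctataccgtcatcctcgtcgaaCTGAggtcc
SNORD116-17: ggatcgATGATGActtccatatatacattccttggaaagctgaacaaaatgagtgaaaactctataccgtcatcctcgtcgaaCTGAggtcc
SNORD115-3: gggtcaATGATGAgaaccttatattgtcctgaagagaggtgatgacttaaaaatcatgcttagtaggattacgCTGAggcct
The same boxes, searched on the RNA strand only, were found in 28 of the 30 SNORD116 copies and 40 of the 48 SNORD115 copies of GENCODE, against 21.5% of its 955 snoRNA transcripts of every class. Counted from 1 at the 5′ end with SNORD116-19 first, SNORD116-14 differs by C74T and SNORD116-18 by A19T. SNORD116-17 has no difference from SNORD116-19, nor SNORD116-5 from SNORD116-7. SNORD116-6 is 1 edit from SNORD116-2. SNORD116-13 is the called copy with the most distinct sequence, 10 edits from its nearest relative, SNORD116-24. Of the 25 copies in the deposited table, 15 lie within 4 edits of another copy and 10 are at least 5 edits away. How reads that map to several copies were counted is not given in the sources used here.

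With wild-type MYC, compared with empty vector, 6 of 25 SNORD116 copies rose in the authors' deposited table (24%), where 4.91% of 38218 genes were called in either direction and 1.97% rose. The fold was above 0 in 24 of 25 copies, with a median of 0.87, beside a median of -0.04 over all genes with a value in the authors' deposited table. The copies that rose, with folds from the authors' deposited table, were SNORD116-13 at 1.31, SNORD116-14 at 1.26, SNORD116-18 at 1.15, SNORD116-7 at 1.10, SNORD116-19 at 1.06 and SNORD116-6 at 0.91. These 6 folds lay inside the range of the 19 copies that were not called. The highest fold of all, 1.43 for SNORD116-9, had a PPDE of 0 in the authors' deposited table, and SNORD116-17 at 1.20 also had a PPDE of 0. SNORD116-16 was lowest, at -0.23 in the authors' deposited table, and it was the one copy below 0. A fold above 1 did not always go with a call. PPDE was listed as 0 for 11 of 25 copies in this comparison, beside 40% of all genes in the authors' deposited table.

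Against the WT libraries, 4 of the 25 SNORD116 copies fell with mutant d2 (16%), where 1.45% of 38113 genes were called in the authors' deposited table and 0.758% fell. The fold was below 0 in 25 of 25 copies, with a median of -0.77 beside 0.04 for all genes in the authors' deposited table. SNORD116-13 fell by 0.95, SNORD116-14 by 0.86, SNORD116-19 by 0.59 and SNORD116-7 by 0.98 on the log2 scale of the authors' deposited table. SNORD116-7 passed narrowly with a PPDE of 0.97, while SNORD116-18, at -0.84, missed with 0.91 in the authors' deposited table. SNORD116-6, the sixth copy that rose in WT, had a d2 fold of -0.47 and a PPDE of 0.032 in the authors' deposited table. The largest negative fold was -1.84 for SNORD116-10 and the smallest -0.05 for SNORD116-16, neither of them called in the authors' deposited table.

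With mutant d4, 4 of 25 copies also fell (16%), where 1.11% of 37812 genes were called in the authors' deposited table and 0.86% fell. The fold was below 0 in 22 of 25 copies, with a median of -0.65 beside -0.05 over all genes in the authors' deposited table. SNORD116-14 fell by 1.04, SNORD116-13 by 0.91, SNORD116-6 by 0.84 and SNORD116-19 by 0.72 on the log2 scale of the authors' deposited table. SNORD116-7 had a d4 fold of -0.70 with a PPDE of 0.78, and SNORD116-18 had -0.65 with 0.28, in the authors' deposited table. The range ran from -1.27 for SNORD116-23 to 0.57 for SNORD116-29, both uncalled in the authors' deposited table. SNORD116-13, SNORD116-14 and SNORD116-19 were the 3 copies called in WT, d2 and d4 alike.

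No copy was called with the other 4 mutants, where few genes were called at all. By the authors' deposited table, 0.559% of 38271 genes were called for d0x, 0.119% of 37973 for d1, 0.0419% of 38176 for d3a and 0.0955% of 37690 for d3b. With d0x, 20 of 25 copies were below 0, with a median of -0.41 and a range from -0.66 for SNORD116-25 to 0.69 for SNORD116-16 in the authors' deposited table. SNORD116-13 at -0.42 and SNORD116-19 at -0.34 had d0x PPDE values of 0.55 and 0.51 in the authors' deposited table, short of a call. With d1, 22 copies were below 0 and the median was -0.33, from -1.20 for SNORD116-11 to 0.21 for SNORD116-16 in the authors' deposited table. With d3a, 21 copies were below 0 and the median was -0.19, from -1.40 for SNORD116-23 to 0.41 for SNORD116-16 in the authors' deposited table. With d3b, 15 copies were above 0, with a median of 0.09 in the authors' deposited table, and its range was -1.25 for SNORD116-10 to 0.37 for SNORD116-5. Whether d3b differs from the other mutants was not tested, because the comparisons share the WT libraries and values per library were not used.

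**Figure D1:**
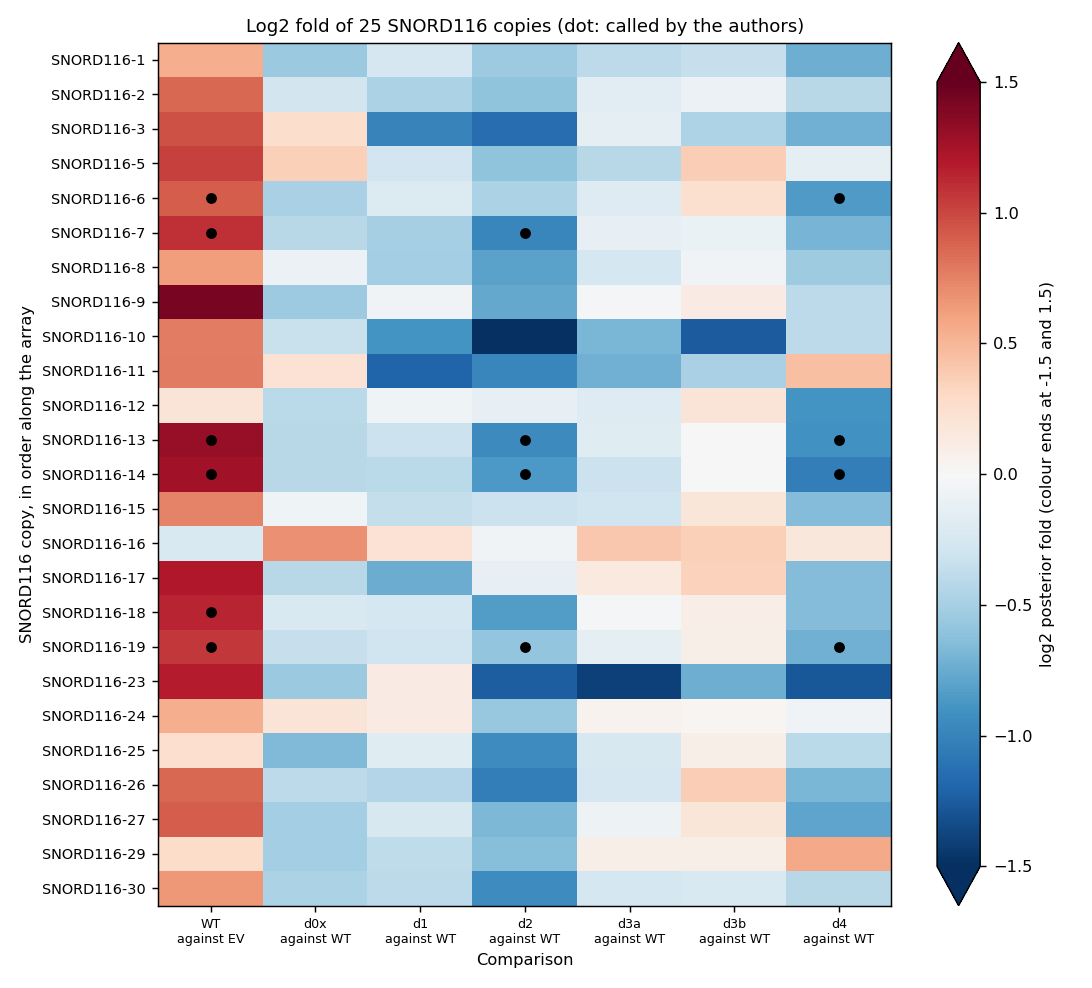
Log2 posterior fold of the 25 SNORD116 copies (rows, in order along the array) in the 7 comparisons (columns); red is higher and blue lower in the first group named, and a black dot marks a call by the authors. All dots stand in 6 rows, in the WT against EV, d2 and d4 columns, and the d2 column is below 0 in 25 of 25 copies.

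The 6 called copies can be followed one at a time through the mutants. SNORD116-13 had folds of -0.42, -0.33, -0.95, -0.18, 0.00 and -0.91 for d0x, d1, d2, d3a, d3b and d4 against WT in the authors' deposited table. SNORD116-14 had -0.41, -0.40, -0.86, -0.32, -0.00 and -1.04 in the same order of that deposited table. SNORD116-19 had -0.34, -0.30, -0.59, -0.14, 0.09 and -0.72 in the authors' deposited table. These copies had their lowest folds with d2 and d4 and their highest with d3b. SNORD116-7 had -0.42, -0.50, -0.98, -0.12, -0.10 and -0.70 in the authors' deposited table, and its order across mutants was the same at both ends. SNORD116-6 had -0.49, -0.20, -0.47, -0.19, 0.24 and -0.84 in the authors' deposited table, so that d0x and d2 were level and d4 was lowest. SNORD116-18 had -0.23, -0.26, -0.84, -0.01, 0.10 and -0.65 in the authors' deposited table. Adding the WT against EV fold to a mutant's fold gives an arithmetic stand-in for that mutant against EV, a comparison not analysed here directly. From the authors' deposited table its median over the 25 copies was 0.08 for d2 and 0.23 for d4, beside 0.62 for d0x, 0.43 for d1, 0.61 for d3a and 0.77 for d3b. The sum was above 0 in 14 of 25 copies for d2, 20 for d4, 21 for d0x, 20 for d1 and 24 each for d3a and d3b in the authors' deposited table.

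Direction was shared across the array: 22 of 25 copies were above 0 in WT against EV and below 0 in both d2 and d4 in the authors' deposited table. These comparisons share the WT libraries, so a high or low WT level alone gives opposite signs, and the count is a description. The share of all genes with these signs is not given here. Of the 25 copies, 15 lie within 4 edits of another, so they may not be separate measurements. Among all 754 genes that rose in WT, 225 (29.8%) fell with d2, 181 (24%) fell with d4 and 87 fell with both in the authors' deposited table. For SNORD116, 4 of the 6 copies that rose fell with d2, 4 fell with d4 and 3 with both.

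By GENCODE 29, the SNORD116 array is 56.9 kb long with a median of 1.86 kb between the starts of neighbouring copies, and all 30 annotated copies lie inside SNHG14. The transcripts are 83 to 102 bases long and have 27 distinct sequences. SNORD116-4, SNORD116-20, SNORD116-21, SNORD116-22 and SNORD116-28 were not analysed here. Copies linked by steps of at most 10 edits form a first group of SNORD116-1 to SNORD116-9, a second of SNORD116-11 to SNORD116-24 and a small one of SNORD116-25 to SNORD116-27. In the first group, 2 of 8 measured copies rose in WT and the median fold was 0.93, with -0.69 for d2 and -0.62 for d4 in the authors' deposited table. In the second, 4 of 11 rose, with medians of 1.06, -0.59 and -0.65 in the authors' deposited table. None of the 3 copies of the small group was called, with medians of 0.87, -0.94 and -0.69 in the authors' deposited table. The medians of the 3 groups had the same sign in each of these comparisons, and with d2 the small group was lowest. The called copies stood between 13.55 kb (SNORD116-6) and 35.05 kb (SNORD116-19) from the start of SNORD116-1, by distances on GRCh38.

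Identical copies show how far folds of one sequence can differ in these data. SNORD116-17 and SNORD116-19 had folds of 1.20 and 1.06 in WT against EV of the authors' deposited table, yet their PPDE values were 0 and 1. A PPDE of 0 was listed for 40% of all genes in that comparison, and the reads behind each value are unknown. With d2 the same pair had -0.13 and -0.59 in the authors' deposited table, a difference of 0.47, and SNORD116-19 alone was called. SNORD116-5 and SNORD116-7 had 1.02 and 1.10 in WT, with PPDE values of 0.15 and 1.00, and -0.61 and -0.98 with d2 in the authors' deposited table. With d0x they had opposite signs, 0.36 and -0.42, and neither was called in the authors' deposited table. SNORD116-3 and SNORD116-9 were furthest apart with d1, where their folds differed by 0.95 in the authors' deposited table. These gaps are as large as many of the folds above. Over the 10 copies at least 5 edits from any other, the medians were 0.77 for WT, -0.95 for d2 and -0.55 for d4 in the authors' deposited table, and 1 copy, SNORD116-13, was called in each. Over the 15 near copies the medians were 0.95, -0.60 and -0.65 in the authors' deposited table.

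Few SNORD115 copies had any reads. Per the file headers no value is given where reads were 0, and 29 of 44 SNORD115 copies had no value in any comparison. A further 14 had a value in some comparisons and not in others, which places their reads outside WT, so 43 of the 44 copies had no WT reads. The 48 SNORD115 copies of GENCODE 29 have 42 distinct sequences. How reads that map to several copies were counted is not given, so a count of 0 need not mean that the RNA was absent. Of the copies without WT reads, EV had reads for 2, SNORD115-5 and SNORD115-35, and the mutants for 2 with d0x, 4 with d1, 3 with d2, 1 with d3a, 5 with d3b and 1 with d4. No fold is given for them, since a fold against a group with no reads has no base. SNORD115-3 was the exception, with a WT against EV fold of 0.75 and mutant folds of -0.83, -0.79, -0.79, 0.16, -0.75 and -0.78 for d0x, d1, d2, d3a, d3b and d4 in the authors' deposited table. Its fold of 0.75 was held by 601 genes of that deposited table, SNORD115-3 included. All 25 SNORD115 values in the authors' deposited table had a PPDE of 0. By contrast, 159 of 175 SNORD116 folds in the authors' deposited table were shared with no other gene. In bulk libraries, fewer cells with the RNA and less RNA per cell cannot be told apart.

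Of the single genes, SNRPN, SNURF and UBE3A had values in all 7 comparisons and none was called. SNRPN, which encodes the spliceosomal protein SmN, had a fold of 0.04 in WT and -0.01, 0.07, 0.16, 0.06, 0.11 and -0.06 for d0x, d1, d2, d3a, d3b and d4 in the authors' deposited table. It therefore stayed within 0.16 of 0 in every comparison. SNURF, a short reading frame at the start of the SNRPN transcript, had 0.78 in WT and -0.20, 0.27, -0.08, 0.12, 0.02 and -0.39 in the mutants of the authors' deposited table, with a WT PPDE of 0. By GENCODE 29 its whole 22.9 kb lies within SNRPN on the same strand, so the reads of these 2 genes may have been divided between them in a way that the sources used here do not give. UBE3A had 0.12 in WT and -0.18, -0.14, -0.08, -0.11, 0.09 and -0.21 in the mutants of the authors' deposited table. SNHG14 overlaps 85.7 of the 105 kb of UBE3A on the opposite strand by GENCODE 29, and whether reads were counted by strand is not given in the sources used here. UBE3A was also the only member among the 9368 genes of the authors' second deposited table, which holds genes with a MYC binding site, where its WT fold was 0.15 and its mutant folds were between -0.18 and 0.01. MAGEL2, a regulator of ubiquitin ligases on endosomes, had no value in any comparison and so no reads in any group. NDN, a related growth suppressor expressed in neurons, had reads in d2 only.

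The host RNA was called in WT against EV and in no mutant. SNHG14 had a WT fold of 0.45 with a PPDE of 1.00 in the authors' deposited table. It was 1 of 2 neighbouring genes that rose among 14 with a value (14.3%, beside 1.97% of all genes). Its mutant folds were -0.23, -0.17, -0.41, -0.15, 0.07 and -0.34 for d0x, d1, d2, d3a, d3b and d4 in the authors' deposited table, and none was called, with PPDE values of 0.61, 0.59 and 0.59 for d0x, d2 and d4. Their order across mutants, lowest with d2 and highest with d3b, was that of the SNORD116 medians at both ends. Further noncoding RNAs of the locus had positive WT folds that were not called in the authors' deposited table: PWAR1 at 0.59, PWAR5 at 0.56 and PWAR6 at 0.52. With d2 they had -0.47, -0.56 and -0.55 in the authors' deposited table. MKRN3, an imprinted ubiquitin ligase upstream of SNRPN, had 0.25 in WT and -0.35 with d2 in the authors' deposited table, neither of them called. The other neighbour that rose was NIPA2, a magnesium transporter gene outside the imprinted interval, at 0.30 in the authors' deposited table. SNORD64, another snoRNA of SNHG14, had a WT fold of -0.22 in the authors' deposited table with a PPDE of 0, a fold held by 65 genes. Among genes on either side, HERC2 had -0.15, TUBGCP5 -0.17, CYFIP1 -0.28 and NIPA1 -0.14 in WT against EV of the authors' deposited table, none of them called. OCA2, a pigmentation gene, had 1.52 with a PPDE of 0 in the authors' deposited table, a fold held by 49 genes.

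**Figure D2:**
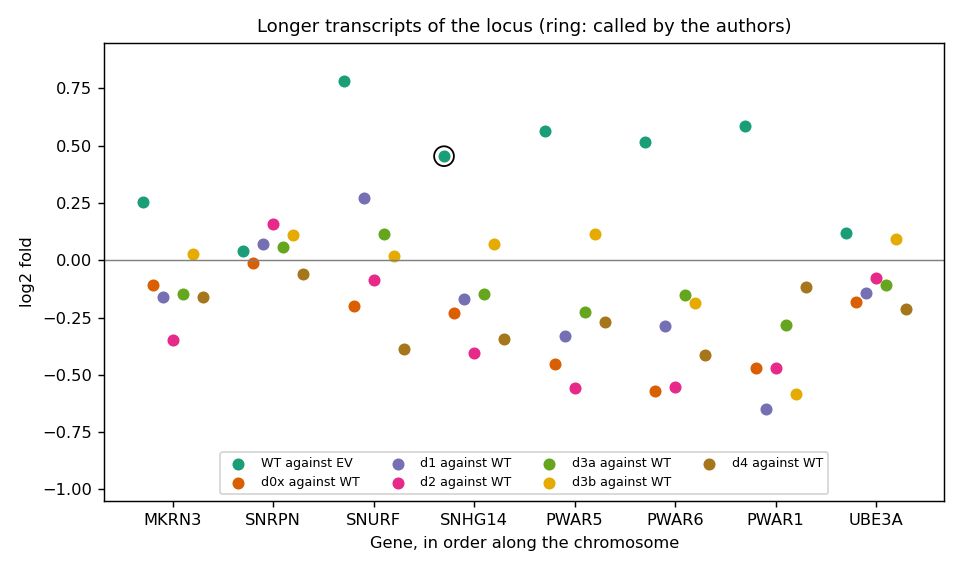
Log2 fold (vertical axis) of 8 longer transcripts of the locus, in chromosome order (horizontal axis), in each of the 7 comparisons (colours); a ring marks a call by the authors. SNHG14 in WT against EV, at 0.45, is the one ringed point, and SNRPN lies within 0.16 of 0.

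The promoters of the locus were searched for the E-box CACGTG, the short element to which MYC binds with its partner MAX and which reads the same on both strands. In the RefSeq promoter table (GRCh38.p14, 250 bases before to 50 after each start) it was absent from all 14 promoters of 9 genes of the locus, among them SNHG14, SNRPN, SNURF, NDN, MAGEL2 and UBE3A. It was found in 7.26% of all 35116 promoters. The lack of a match says only that these letters are not in those windows.

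Other snoRNAs were set beside SNORD116 to see where it differed. Of 73 other SNORD symbols with a value in WT against EV, 4 rose (5.48%), beside 1.97% of all genes. Their median fold was 0.53 in the authors' deposited table. The 4 were SNORD1B at 1.31, SNORD20 at 1.11, SNORD101 at 0.97 and SNORD100 at 0.93 in the authors' deposited table. SNORD100 and SNORD101 are cut from introns of the ribosomal protein gene RPS12, and SNORD20 from the nucleolin gene. With d2 and d4 none of 74 other SNORD symbols was called, where 1.45% and 1.11% of all genes were. A list of this size can lack calls at such shares. Medians of the other SNORD symbols were -0.23 and -0.27 in the authors' deposited table. The SNORD116 median was further from 0 in these 3 comparisons, and the difference between the lists was not tested. The other large imprinted snoRNA cluster, on chromosome 14q32, was mostly unread: 5 of its 46 genes had a value for WT against EV, and none was called in any comparison.

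Genes for proteins that build the box C/D particle were also called. Of 11 measured, 3 rose with WT MYC in the authors' deposited table (27.3%, beside 1.97% of all genes). They were NOP56, a core scaffold protein, at 0.62, NOLC1, a snoRNP chaperone, at 0.65 and RUVBL1, an assembly ATPase, at 0.51. With d2 the same 3 genes fell, by 0.64, 0.53 and 0.54 on the log2 scale of the authors' deposited table. With d4 NOP56 fell by 0.31, RUVBL1 by 0.50 and NUFIP1, an assembly factor, by 0.66 on the log2 scale of the authors' deposited table. The share that fell was 27.3% with d2 and with d4, beside 0.758% and 0.86% of all genes. FBL had the fold furthest from 0 of this list in WT (0.79) and with d2 (-0.84), and was not called. NOP56 also fell with d1, by 0.31, in the authors' deposited table, where 0.0895% of all genes fell. Calls differed in the authors' second fit, of genes with a MYC binding site. There NOP56 was not called with d4 (PPDE 0.34) or d1 (0.018), nor RUVBL1 with d2 (0.88) or d4 (0.91). In that fit NOLC1 fell with d0x and d4, NOP56 fell with d0x, and NUFIP1 rose in WT, each with a call. Of the 7 Sm proteins, relatives of the SmN encoded by SNRPN, SNRPD1 (0.35) and SNRPE (0.41) rose in WT in the authors' deposited table. SNRPD3 fell by 0.52 with d2 and SNRPG by 0.33 with d4 in the authors' deposited table. In this list of 7 genes that is 28.6% risen in WT and 14.3% fallen with each of d2 and d4. These calls also changed in the second fit, where SNRPG was not called with d4 (PPDE 0.61). There SNRPD3 also rose in WT, SNRPD1 and SNRPE fell with d4, and SNRPE fell with d0x.

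Genes tied to imprinting elsewhere were also counted. None of 14 genes that maintain imprints was called in any of the 7 comparisons. Over all genes the share called was between 0.0419% (d3a) and 4.91% (WT against EV), so a list this short can lack calls. Of 20 other imprinted genes, SGCE fell by 0.80 in WT against EV and IGF2 rose by 2.48 with d4 in the authors' deposited table. Each is 5% of its list, where 2.94% of all genes fell in WT against EV and 0.251% rose with d4. Of 10 partners of MAGEL2, NDN and UBE3A, TRIM27, the ligase that MAGEL2 enhances, fell by 0.34 with d2 and by 0.29 with d4 in the authors' deposited table. That is 10% of the list in each, where 0.758% and 0.86% of all genes fell. In the authors' second fit, of genes with a MYC binding site, TRIM27 was called with neither mutant. Its PPDE there was 0.042 for d2 and 0.0056 for d4.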

How the data were processed

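The deposited data are 2 tables of the authors' comparisons, and per the file headers their values are log2 posterior folds and PPDE values, missing where read counts were 0. Tools named without a role in the submitters' processing notes are DESeq, R 3.3.1, edgeR 3.16.5 and STAR 2.5.2a, and the build is GRCh37. The scaling of libraries, the depth and the counting of multi-mapped reads or strand are not given in the sources used here. Members were matched by symbol, and calls (PPDE of at least 0.95), medians and ranges were computed in Python 3.11.15 with pandas 2.3.3. The script was tested on simulated data. The sign of the folds was checked on 6626 genes with no WT reads, where 14398 of 14400 values pointed away from WT. Sequence distances came from edlib 1.3.9.post1, on GENCODE 29 transcripts, and distances along the array are those of GRCh38, while the submitters name GRCh37 for the values. Named were all single genes, called copies, the copies with the highest and lowest folds, and listed genes that were called or neighbour the locus. A few listed genes are not reported here. SNORD116-3, SNORD116-5, SNORD116-11, SNORD116-17, SNORD116-25 and FBL were named after their values were seen. Members and lists were chosen with earlier results of these data known. No test of the members was made, since the locus was picked on these comparisons.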

Additional observations from a re-analysis of the deposited data

How the results depend on the processing

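No paired analysis was possible because the deposited tables hold comparisons between groups and no values per library, and for the same reason leaving out replicates, other scalings, filters on low counts and other tests were not run. Of the alternatives tried, 80 values stayed within 1.5 times the reported count or 0.1 of the reported log2 median. A further 11 moved beyond that and none reversed. Many of the 80 could not have moved, so their number is no measure of stability. Counts of 0 in d0x, d1, d3a and d3b cannot fall under stricter settings or with fewer copies. All 25 SNORD116 copies had all 7 values, so requiring these left every median as it was, as did counting equal copies once. Requiring an absolute log2 fold of at least 1 left 0 members called in d2 and 1 in d4. The fit of MYC-bound genes, which holds UBE3A alone of the members, gave 0 called in WT against EV, 0 in d2 and 0 in d4. Leaving out identical copies, and leaving out near copies, were added after seeing the data. Without identical copies, 4 members were called in WT against EV and 2 in d2, and the SNORD116 median in WT against EV was 0.76. Without copies within 4 edits of another, 1 member was called in WT against EV, 1 in d2 and 1 in d4, and the SNORD116 median in d2 was -0.95. Fewer copies enter both of these settings. The depth behind each value is unknown.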
